A study of Mus musculus with 18 samples.

Results

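A set of 10 genes of the endoplasmic reticulum stress response was followed in RNA of mice that lack Ppt1 and of wild-type mice. They are Hspa5, Hsp90b1, Calr, Pdia4, Pdia6, Dnajb9, Herpud1, Xbp1, Atf4 and Ddit3, and every probe set to which the array annotation gives one of these symbols alone was taken. This gave 24 of the 45101 probe sets and 10 of the 18193 genes with a symbol of their own. Palmitoyl-protein thioesterase 1, the product of Ppt1, strips palmitate off proteins in the lysosome, and people without it develop a childhood neurodegeneration, infantile neuronal ceroid lipofuscinosis.

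The groups were Ppt1 knockout mice at 3, 5 and 8 months and wild-type mice at 3, 5 and 8 months, with 3 arrays in each and 18 in all. The labels name no treatment, strain or other allele. Each group held 1 male and 2 females, apart from the 8-month knockout group with 2 males and 1 female. The source is labelled with the words brain and cochlea. All 9 neuronal, 9 astrocyte and 7 oligodendrocyte markers on the array were above its background on every array, whereas 8 of 13 cochlear markers were not (Otoa, Otog, Otor, Pou4f3, Slc26a5, Strc, Tecta and Tectb) and 5 were (Gjb2, Gjb6, Otof, Myo7a and Coch). Nothing in the labels ties the arrays of a group to separate mice, so p-values measure only how these samples vary, and that variation may be technical. In bulk RNA, fewer cells of a type and less RNA per cell cannot be told apart.

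The targeted gene followed the labels. Ppt1 read 0.8795 to 23.41 on the knockout arrays, against 542.6 to 629.4 on the wild-type arrays (signal of its brightest probe set), although the sources used here do not say whether it lies in the deleted part. The median signal of an array was 43.17 to 46.09. The 8-month knockout arrays stood apart. Replicates 1, 2 and 3 correlated with the others of their group at a mean r of 0.9669, 0.9694 and 0.9614, against 0.9791 to 0.9827 on all arrays of the other groups, and the spike-in controls of replicate 3 were shifted by 0.217 on the log2 scale, against -0.092 to 0.147 on the other arrays. The summed signal of 10 microglial markers was 7230, 8408 and 4740 on these replicates, against 3139 to 3327 in the wild type at 8 months, and that of 9 astrocyte markers was 30350, 30660 and 22020, against 12540 to 13090. Replicate 3 was thus the lowest of its group in both sums, and the 8-month results of the 10 genes are given with and without it.

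Proteins that enter the secretory pathway fold in the endoplasmic reticulum with the help of chaperones and disulfide isomerases. When unfolded proteins build up there, the unfolded protein response is switched on through the sensors IRE1, PERK and ATF6. IRE1 splices the mRNA of Xbp1 into a form that encodes an active transcription factor, PERK slows general translation while favouring that of Atf4, and ATF6 is cut in the Golgi to release a transcription factor that acts on chaperone genes. Hspa5 (the chaperone BiP) and Ddit3 (the factor CHOP) are the usual transcript markers of this response. The question is whether these transcripts differed in the absence of a lysosomal enzyme, and at which age.

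Known response elements were looked up in the promoters. ATF6 and XBP1 are known to act through the endoplasmic reticulum stress element, which was defined on chaperone promoters such as that of Hspa5, so its presence among genes chosen as targets and chaperones of this response is a description. It was searched here as CCAAT, 9 free bases and CCACG on both strands from 250 bases before to 50 bases after the RefSeq start (assembly GRCm38.p6). The element was present in 4 of the 10 genes (Hspa5, Hsp90b1, Calr and Pdia6) and was not found in the windows of Pdia4 and Dnajb9, against 0.119% of 32851 RefSeq promoter windows. The short form, ATTGG, 1 free base and CCACG, was found in Herpud1 and in 0.0365% of windows. These windows are shown because they hold the elements, with the fixed letters of each element in capitals. They lie at chr2:34771840-34772139 (Hspa5, plus strand), chr10:86705395-86705694 (Hsp90b1, minus strand), chr8:84846882-84847181 (Calr, minus strand), chr12:17266339-17266638 (Pdia6, plus strand) and chr8:94386179-94386478 (Herpud1, plus strand), each written 5′ to 3′ in the direction of the gene.
Hspa5: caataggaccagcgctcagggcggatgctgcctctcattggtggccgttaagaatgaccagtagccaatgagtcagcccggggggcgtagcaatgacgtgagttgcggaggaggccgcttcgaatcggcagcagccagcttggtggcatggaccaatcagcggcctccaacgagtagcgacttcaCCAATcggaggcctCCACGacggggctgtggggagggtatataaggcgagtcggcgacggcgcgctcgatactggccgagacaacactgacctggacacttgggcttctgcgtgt
Hsp90b1: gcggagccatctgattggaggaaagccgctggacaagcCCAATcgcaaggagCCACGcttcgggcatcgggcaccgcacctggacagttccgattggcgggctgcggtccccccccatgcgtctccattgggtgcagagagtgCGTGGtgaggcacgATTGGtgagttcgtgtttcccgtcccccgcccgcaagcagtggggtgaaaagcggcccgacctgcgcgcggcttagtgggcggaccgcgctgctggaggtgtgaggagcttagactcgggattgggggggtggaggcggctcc
Calr: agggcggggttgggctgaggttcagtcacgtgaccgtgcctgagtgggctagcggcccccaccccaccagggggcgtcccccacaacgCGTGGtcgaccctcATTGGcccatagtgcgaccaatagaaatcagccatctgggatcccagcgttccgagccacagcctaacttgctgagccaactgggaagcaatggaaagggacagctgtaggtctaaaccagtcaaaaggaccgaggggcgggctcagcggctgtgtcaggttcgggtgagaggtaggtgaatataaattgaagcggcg
Pdia6: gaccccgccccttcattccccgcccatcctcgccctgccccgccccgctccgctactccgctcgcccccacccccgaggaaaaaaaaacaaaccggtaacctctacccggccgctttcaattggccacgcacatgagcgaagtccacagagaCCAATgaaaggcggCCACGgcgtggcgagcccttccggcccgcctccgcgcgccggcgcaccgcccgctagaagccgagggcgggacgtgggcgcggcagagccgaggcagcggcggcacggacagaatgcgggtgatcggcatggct
Herpud1: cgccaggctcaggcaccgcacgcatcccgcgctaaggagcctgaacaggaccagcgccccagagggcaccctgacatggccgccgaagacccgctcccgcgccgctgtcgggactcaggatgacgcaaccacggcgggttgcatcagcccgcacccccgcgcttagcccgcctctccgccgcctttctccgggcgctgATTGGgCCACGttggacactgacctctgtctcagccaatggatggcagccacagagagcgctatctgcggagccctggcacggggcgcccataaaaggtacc

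Counted from the start, the element covered bases -65 to -47 of Hspa5 and -98 to -80 of Pdia6 on the strand of the gene, and -162 to -144 of Calr on the opposite strand. Hsp90b1 held a pair, at -212 to -194 on its own strand and at -107 to -89 on the opposite one. The short form of Herpud1 covered -52 to -42. Herpud1 was also the only one of the 10 windows with the amino acid response motif TGATGNAA, to which ATF4 is known to bind, at -112 to -105 on the opposite strand (3.97% of windows). The 8-letter motifs TGACGTGG and TGACGTCA were in 0 of the 10 windows, against 0.676% and 1.79% of all windows. These are matches of letters within the window only.

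**Figure D1:**
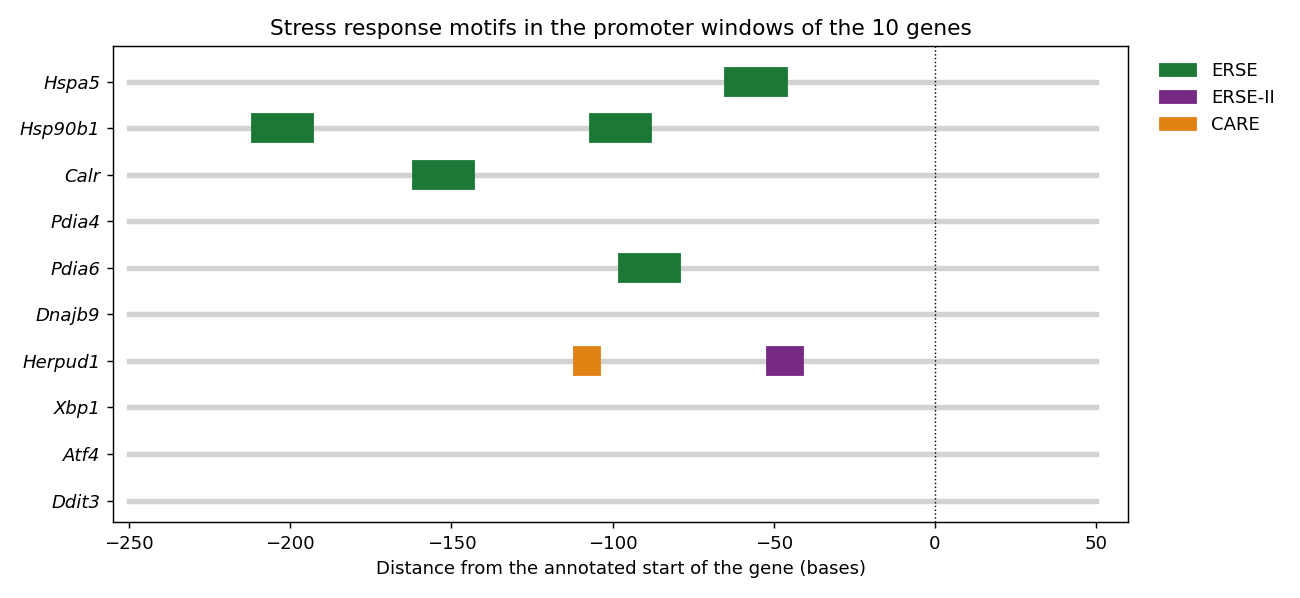
Positions of the motifs in the promoter windows of the 10 genes, in bases from the RefSeq start (x axis), with 1 row per gene and a colour for each motif (ERSE, the endoplasmic reticulum stress element; ERSE-II, its short form; CARE, the amino acid response motif). ERSE appears in Hspa5, Hsp90b1, Calr and Pdia6, and ERSE-II and CARE in Herpud1.

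No gene of the 10 passed the test for a difference between knockout and wild type averaged over the ages. A change was called where the Benjamini-Hochberg adjusted p of limma, over all 27022 tested probe sets, was below 0.05 for the brightest probe set of the gene. Over the ages 0 of 10 genes were called, and 0 had an unadjusted p below that threshold (28.2% of all genes did), whereas 14.8% of all 12496 tested genes were called (8.39% higher and 6.43% lower). The median log2 change of the 10 genes was 0.037, against -0.009 over all genes. The changes ran from -0.164 for Pdia6, a disulfide isomerase, to 0.112 for Pdia4, another isomerase. For the brightest probe sets, the lowest limit of the 95% intervals was a 0.7927-fold level (Pdia6) and the highest a 1.225-fold level (Pdia4). Upper limits of dimmer probe sets were higher, at 1.498-fold for Pdia6, 1.313-fold for Atf4 and 1.261-fold for Xbp1. For Hspa5 the log2 change was 0.059 ± 0.086 (standard error, adjusted p 0.723), with an interval of -0.119 to 0.237, and for Ddit3 it was 0.100 ± 0.069 (adjusted p 0.394), with an interval of -0.043 to 0.244. The 21 probe sets, of 24, that entered the test were above background on 18 of 18 arrays, and the other 3 (1 each of Pdia4, Atf4 and Ddit3), not tested, were above it on 2, 1 and 6 arrays. Without 8-month knockout replicate 3 the count became 2, both lower: Pdia6 at -0.232 (adjusted p 0.0111) and Xbp1 at -0.146 (adjusted p 0.0397), with 21.2% of all genes called in that setting. Without replicates 1 and 2, which leaves a single 8-month knockout array, Atf4 was at 0.216 and Herpud1 at 0.225.

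**Figure D2:**
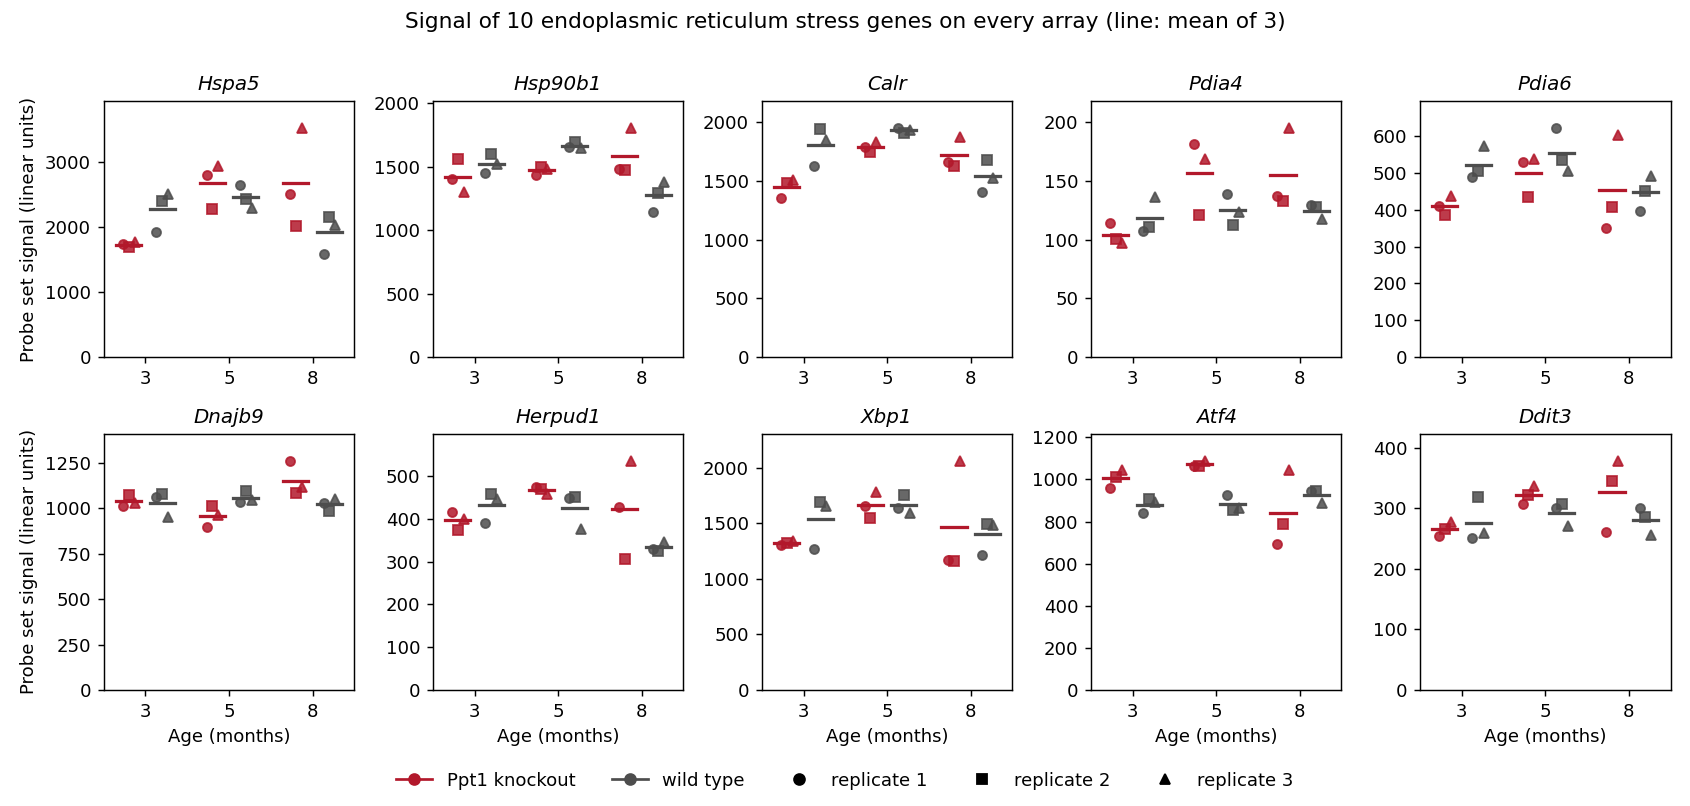
Signal of the brightest probe set of each of the 10 genes on every array (y axis, linear scale), by age in months, with knockout to the left of wild type; points are arrays and lines are group means. Hspa5 lay between 1688 and 1769 on the knockout arrays at 3 months, under the wild-type arrays at 1921 to 2510.

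At single ages, Calr was called lower in the knockout at 3 months, Hsp90b1 was called higher at 8 months, and no gene was called at 5 months. Of all genes, 1.25%, 2.97% and 12.9% were called at 3, 5 and 8 months. No test set an age against the average over the ages. Both calls depended on the probe set and on the arrays kept, as given below. The 3 endoplasmic reticulum chaperones are therefore described first.

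Hspa5, whose protein BiP binds unfolded chains and holds the sensors inactive, read 1741, 1688 and 1769 on the knockout arrays at 3 months, against 1921, 2402 and 2510 on the wild-type arrays. At 5 months it read 2801, 2280 and 2948 in the knockout, against 2643, 2439 and 2292 in the wild type. At 8 months it read 2505, 2023 and 3520 in the knockout, against 1588, 2154 and 2037 in the wild type. At 3 months every knockout array was thus lower than any wild-type array, and the groups overlapped at the later ages. The log2 change was -0.382 ± 0.147 at 3 months (0.7672-fold, adjusted p 0.345), 0.116 ± 0.147 at 5 months (adjusted p 0.801) and 0.444 ± 0.150 at 8 months (1.361-fold, adjusted p 0.0593). None of these passed. Within the knockout, Hspa5 rose by 0.584 ± 0.150 between 3 and 8 months (1.499-fold, adjusted p 0.026), and a second probe set gave 0.53 (adjusted p 0.045). The third probe set did not follow the brightest (r 0.092) and gave -0.01 in that comparison. The rise no longer passed without knockout replicates 1, 2 or 3 of 3 months (0.583, 0.569 and 0.601, adjusted p 0.106, 0.0771 and 0.0608) or replicate 1 of 8 months (0.615, adjusted p 0.0546). Without 8-month knockout replicate 3 it was 0.382 and passed (adjusted p 0.0437). The difference from the wild type at 8 months was 0.242 without replicate 3 (adjusted p 0.191) and 0.695 without replicate 2, where it passed (adjusted p 0.00887).

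Hsp90b1, the chaperone GRP94 that folds receptors and secreted proteins, read 1403, 1558 and 1299 in the knockout at 3 months, against 1446, 1603 and 1523 in the wild type. At 5 months it read 1435, 1497 and 1478 in the knockout, against 1651, 1696 and 1647 in the wild type. At 8 months it read 1482, 1471 and 1800 in the knockout, against 1146, 1294 and 1382 in the wild type. The groups overlapped at 3 months, all knockout arrays were lower than the wild-type arrays at 5 months, and all were higher at 8 months. The 5-month change of -0.178 ± 0.083 did not pass (adjusted p 0.341). At 8 months Hsp90b1 was higher in the knockout than in the wild type by 0.324 ± 0.084 (1.252-fold, interval 1.108 to 1.413, adjusted p 0.0155). The value was 0.227 without 8-month knockout replicate 3 (adjusted p 0.0383) and 0.242 without 8-month wild-type replicate 1, where it no longer passed (adjusted p 0.146). From 3 to 8 months Hsp90b1 changed by 0.169 ± 0.084 within the knockout (adjusted p 0.259) and by -0.258 ± 0.083 within the wild type (adjusted p 0.487). The other Hsp90b1 probe set did not follow the first over the arrays (r 0.094) and gave -0.17 at 8 months, so the call rests on a single probe set.

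Calr, calreticulin, a calcium-binding chaperone of glycoproteins, read 1354, 1484 and 1505 in the knockout at 3 months, against 1627, 1940 and 1850 in the wild type. At 5 months it read 1791, 1743 and 1832 in the knockout, against 1947, 1906 and 1938 in the wild type. At 8 months it read 1659, 1630 and 1873 in the knockout, against 1409, 1678 and 1529 in the wild type. At 3 and 5 months all knockout arrays were lower than any wild-type array, and at 8 months the groups overlapped. Calr fell by 0.313 ± 0.073 on the log2 scale at 3 months (0.8047-fold, interval 0.7242 to 0.8942, adjusted p 0.0406), the one gene of the 10 called at that age, against 1.25% of all genes called and 0.336% called lower. The other Calr probe sets did not pass at 3 months, at -0.293 and -0.305 (adjusted p 0.0662 and 0.0869). The call was lost without any one of the 3-month knockout replicates 1, 2 and 3 (-0.284, -0.321 and -0.331, adjusted p 0.231, 0.133 and 0.0812) or the 3-month wild-type replicates 2 and 3 (-0.27 and -0.305, adjusted p 0.239 and 0.162). With 5-month knockout replicate 2 or 3 or 8-month wild-type replicate 3 left out the value stayed at -0.313, with adjusted p of 0.0538, 0.0547 and 0.0563. At 8 months its change was 0.183 ± 0.075 (adjusted p 0.119), and 0.113 without knockout replicate 3 (adjusted p 0.290). Another Calr probe set gave 0.254 at 8 months and passed (adjusted p 0.0331), and the remaining one gave 0.117 and did not (adjusted p 0.403). The 3 Calr probe sets followed each other closely, the dimmer ones each at an r of 0.944 with the brightest over the arrays.

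The isomerases Pdia4 and Pdia6, which form and rearrange disulfide bonds, were not called in any comparison with all arrays. Pdia6 read 411, 386 and 437 in the knockout at 3 months, against 489, 505 and 573 in the wild type, so that the groups did not overlap. Its log2 change there was -0.332 ± 0.142 (adjusted p 0.425). At 8 months the knockout arrays of Pdia6 read 350, 408 and 604, on both sides of the wild-type arrays at 398, 451 and 492. The change was -0.020 ± 0.145 (adjusted p 0.948), and -0.224 without replicate 3 (adjusted p 0.186). The dimmer Pdia6 probe set (r 0.267 with the brightest) gave -0.1 at 3 months, where its groups overlapped. It gave 0.553 at 5 months, 0.243 at 8 months and 0.232 over the ages, none of them called. The lower values of Pdia6 thus rest on its brightest probe set. Pdia4 was the dimmest of the 10 genes. It read 137, 132 and 195 in the knockout at 8 months, against 129, 127 and 117 in the wild type, so the knockout arrays were all higher, 2 of them by little. The change was 0.213 ± 0.152 (adjusted p 0.406), and 0.083 without replicate 3 (adjusted p 0.751).

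Dnajb9, a co-chaperone of BiP that is induced through XBP1, read 1259, 1085 and 1115 in the knockout at 8 months, against 1031, 986 and 1050 in the wild type. The knockout arrays lay above every wild-type array, with a log2 change of 0.170 ± 0.075 that did not pass (adjusted p 0.152), and 0.190 without knockout replicate 3 (adjusted p 0.0959). Over the ages its change was 0.013 ± 0.043, with the interval -0.076 to 0.101. Herpud1, a membrane protein of the degradation machinery, read 428, 305 and 535 in the knockout at 8 months, against 330, 324 and 347 in the wild type, and the groups overlapped. Its change was 0.256 ± 0.129 (adjusted p 0.217). It was 0.099 without knockout replicate 3 (adjusted p 0.587), and it passed without 8-month knockout replicate 2 at 0.495 (adjusted p 0.0178). The other Herpud1 probe set gave -0.048 ± 0.173 (adjusted p 0.894).

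Of the transcription factors, Xbp1 read 1310, 1327 and 1340 in the knockout at 3 months, against 1273, 1696 and 1655 in the wild type. At 5 months it read 1656, 1548 and 1785 in the knockout, against 1638, 1757 and 1595 in the wild type. At 8 months it read 1171, 1166 and 2060 in the knockout, against 1219, 1498 and 1487 in the wild type. Knockout replicates 1 and 2 were thus below all wild-type arrays at 8 months and replicate 3 above all of them. The 8-month change was 0.035 ± 0.152 over the 3 arrays (adjusted p 0.911) and -0.232 without replicate 3 (adjusted p 0.0768). It was 0.656 without replicates 1 and 2, a setting chosen after seeing the data that leaves replicate 3 as the only 8-month knockout array. The other Xbp1 probe sets gave -0.136, 0.096 and 0.395 at 8 months, none of them called. The probe sets were read as total Xbp1 transcript, and splicing was not measured.

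Atf4, the factor whose translation PERK favours and which acts on amino acid supply genes, read 961, 1013 and 1046 in the knockout at 3 months, against 842, 906 and 893 in the wild type. At 5 months it read 1064, 1063 and 1086 in the knockout, against 927, 854 and 863 in the wild type. At 8 months it read 692, 787 and 1046 in the knockout, against 944, 943 and 890 in the wild type. The knockout arrays lay above every wild-type array at 3 and 5 months, and at 8 months replicates 1 and 2 lay below all of them and replicate 3 above. The log2 change was 0.190 ± 0.099 at 3 months (adjusted p 0.559), 0.278 ± 0.099 at 5 months (adjusted p 0.180) and -0.158 ± 0.101 at 8 months (adjusted p 0.345). Without 8-month knockout replicate 3, Atf4 passed at 5 months with the same value (adjusted p 0.0156) and at 8 months with -0.314 (adjusted p 0.00377). The dimmer Atf4 probe set (r 0.456 with the brighter) gave 0.321 ± 0.187 at 8 months (adjusted p 0.295). It gave 0.203 ± 0.183 at 3 months and -0.011 ± 0.183 at 5 months (adjusted p 0.806 and 0.99). Its knockout and wild-type arrays overlapped at 3 and 5 months, so the separation at these ages rests on the brighter probe set. Ddit3, a factor that ATF4 induces and that promotes cell death under lasting stress, read 307, 323 and 338 in the knockout at 5 months, against 301, 307 and 271 in the wild type. At 8 months it read 260, 345 and 378 in the knockout, against 301, 285 and 256 in the wild type. Its change was 0.133 ± 0.118 at 5 months (adjusted p 0.688) and 0.215 ± 0.121 at 8 months (adjusted p 0.276). The 8-month change was 0.106 without knockout replicate 3 (adjusted p 0.578), 0.350 without replicate 1 (adjusted p 0.0642) and 0.432 without replicates 1 and 2.

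**Figure D3:**
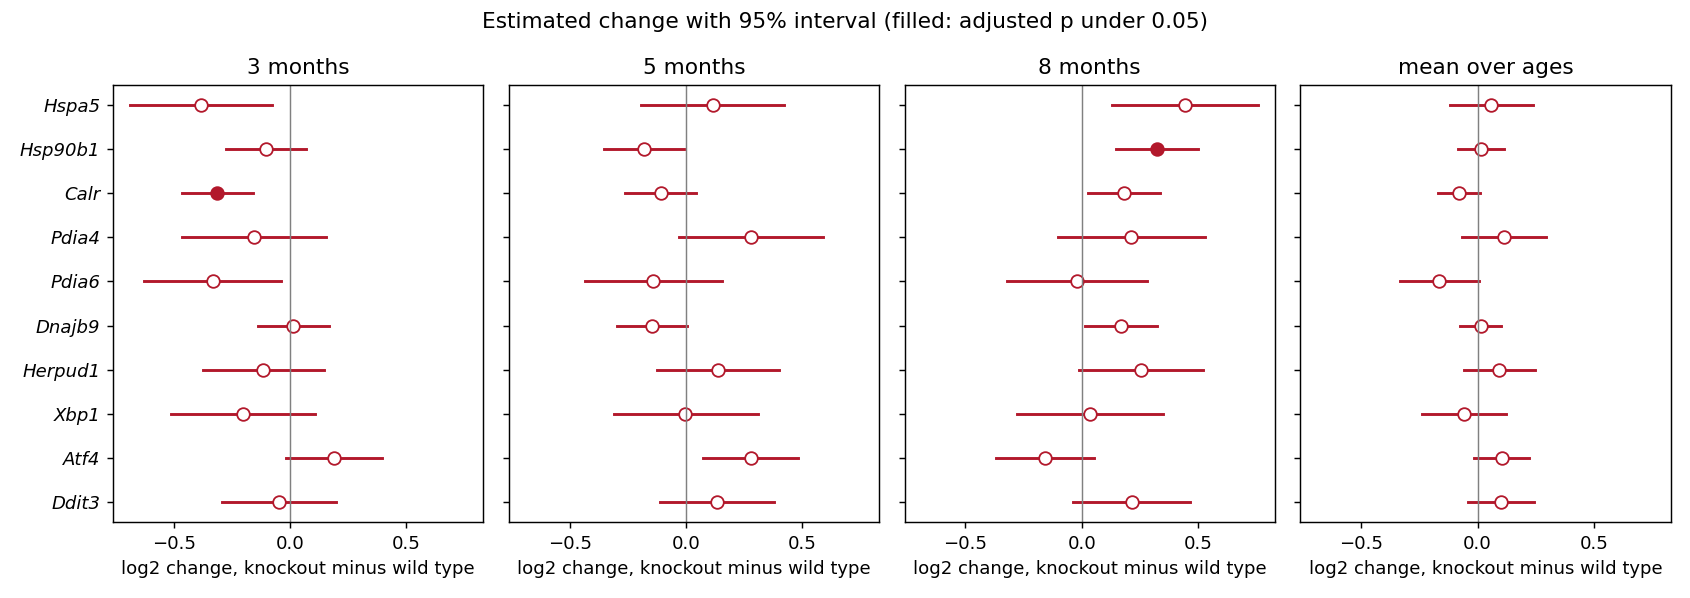
Knockout minus wild type for each of the 10 genes (x axis, log2 change with 95% interval) at 3, 5 and 8 months and as the mean over the ages. Filled points mark the changes called after adjustment, Calr at 3 months and Hsp90b1 at 8 months.

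Counted over the 10 genes, 1 was called lower at 3 months (Calr). An unadjusted p below 0.05 was reached by 3, all lower (Hspa5, Calr and Pdia6), against 11.6% of all genes, with 5.31% lower. The median change was -0.135, against 0.002 over all genes. For 3 genes all knockout arrays were lower than all wild-type arrays, against 10.2% of all genes, and above for 1 (Atf4), against 10.6%. At 5 months 0 of 10 genes were called, against 2.97% of all genes, and 2 had an unadjusted p below 0.05, Atf4 higher and Hsp90b1 lower, against 15.1% of all genes. The arrays of the genotypes did not overlap for 6 of 10 genes at that age, against 22.5% of all genes, with Atf4, Ddit3 and Herpud1 above and Hsp90b1, Calr and Dnajb9 below. Ddit3 was apart by little, at 307.5 or more in the knockout and 306.8 or less in the wild type. The dimmer tested probe sets of Atf4, Herpud1 and Hsp90b1 overlapped at 5 months, as did a dimmer one of Calr. At 8 months 1 of 10 was called higher, against 12.9% of all genes called and 6.97% called higher. An unadjusted p below 0.05 was reached by 4, all higher (Hspa5, Hsp90b1, Calr and Dnajb9), against 27.5% of all genes, with 13.3% higher. The median change was 0.198, against -0.022 over all genes. The knockout arrays lay above every wild-type array for 3 genes (Hsp90b1, Pdia4 and Dnajb9), against 12.8% of all genes, and below for 0, against 14.4%.

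The 8-month knockout arrays differed among themselves in these genes. On replicate 3 all 10 genes stood above the wild-type mean of that age, from 0.123 for Dnajb9 to 0.876 for Hspa5 on the log2 scale, with a median of 0.462. On each of replicates 1 and 2, 6 genes stood above it and 4 below, with medians of 0.118 and 0.080. Without replicates 1 and 2 the 8-month changes included Hspa5 at 0.939, Hsp90b1 at 0.553, Xbp1 at 0.656 and Herpud1 at 0.651. These rest on the single remaining array, which was singled out after seeing the data. Without replicate 3 the genes called at 8 months were Hsp90b1 and, lower, Atf4, with 21.5% of all genes called. The array with the highest median level of these genes was the one with the lowest microglial and astrocyte marker sums of its group. The neuronal sum was 28030, 26490 and 31390 on replicates 1, 2 and 3, against 31460 to 32040 in the wild type at 8 months. The cochlear sum was 2384, 1748 and 1375, against 1234 to 1308, so here replicates 1 and 2 lay further from the wild type. The part of the marker sums, of the spike-in shift and of sex in the differences among these arrays was not tested.

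**Figure D4:**
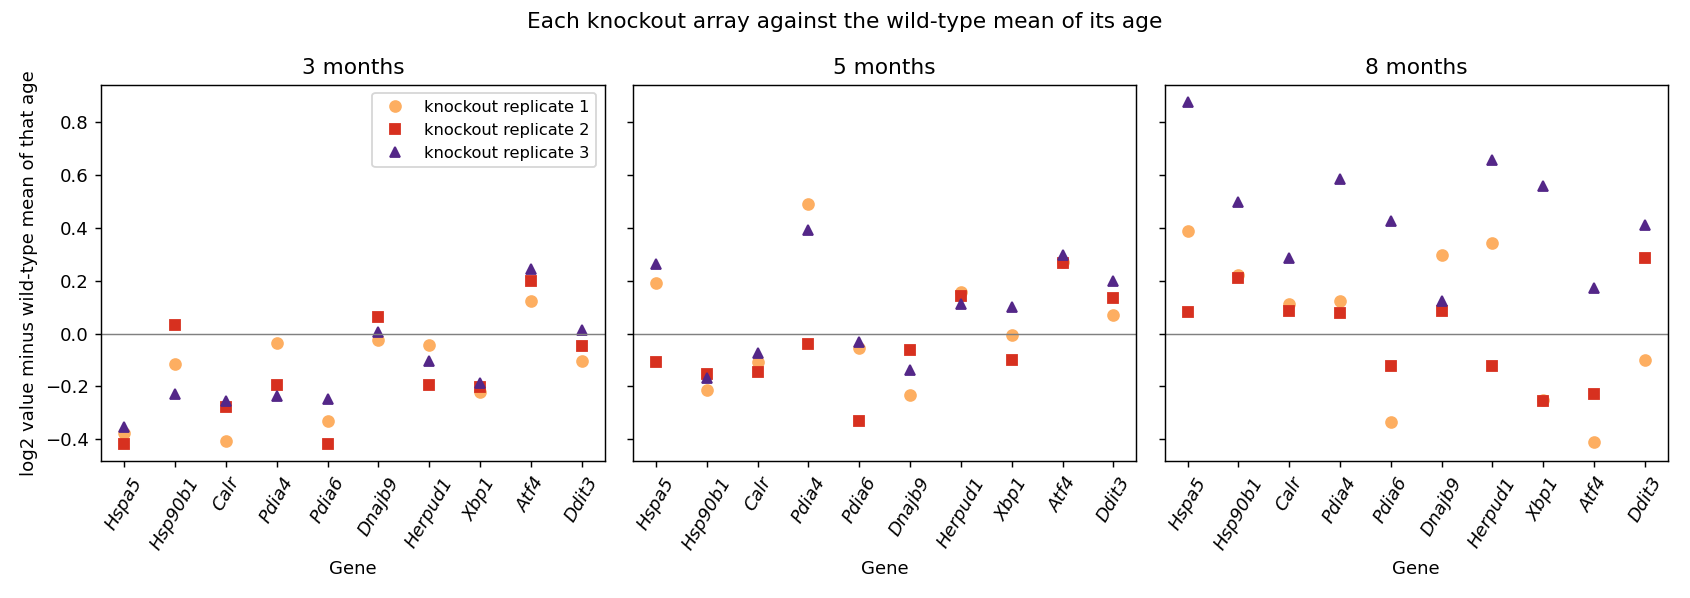
Log2 value of each knockout array minus the wild-type mean of its age (y axis) for the 10 genes, at 3, 5 and 8 months, with a symbol for each replicate. At 8 months replicate 3 is above 0 for all 10 genes, whereas replicates 1 and 2 fall on both sides.

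The effect of the knockout at 8 months minus that at 3 months tests whether it changed with age. It was positive for 9 of 10 genes, with a median of 0.34, against -0.017 over all genes. Calr alone was called, at 0.497 ± 0.105 (interval 0.279 to 0.714, adjusted p 0.0247), against 1.18% of all genes. Hspa5 had the highest value, 0.827 ± 0.211 (adjusted p 0.0591), and Atf4 the one negative value, -0.348 ± 0.141 (adjusted p 0.251). Without 8-month knockout replicate 3 the calls were Hspa5 at 0.625 (adjusted p 0.0274), Calr at 0.427 (adjusted p 0.0088) and Atf4 at -0.504 (adjusted p 0.00279), with 7.63% of all genes called. The Calr value stopped passing without 3-month knockout replicate 1 or 2 (0.463 and 0.503), 3-month wild-type replicate 2 or 3 (0.449 and 0.488) or 8-month wild-type replicate 1 or 3 (0.443 and 0.483), at an adjusted p of 0.0538 to 0.0982. Hspa5 passed without 8-month knockout replicate 2 (1.077, adjusted p 0.0151) and without 3-month wild-type replicate 1 (0.949, adjusted p 0.0394). Within the knockout, 8 months against 3 months, 2 genes were called, both higher, Hspa5 (above) and Calr at 0.268 ± 0.075 (adjusted p 0.0383), against 5.79% of all genes called and 3.67% called higher. Calr did not pass there without knockout replicates 1, 2 or 3 of 3 months (0.234, 0.275 and 0.285) or replicates 1 or 3 of 8 months (0.281 and 0.198), at an adjusted p of 0.0638 to 0.187. Within the wild type 0 of 10 genes were called, against 0.024% of all genes. An unadjusted p below 0.05 was reached by 3, all lower, against 7.61% of all genes, with 3.49% lower. They were Hsp90b1 at -0.258 ± 0.083, Calr at -0.228 ± 0.073 and Herpud1 at -0.354 ± 0.126 (adjusted p 0.487, 0.488 and 0.560).

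The other genes of the pathway were taken as 7 lists, of which 99 genes without the 10 were tested. Over the ages 17 of the 99 rose and 3 fell, against 14.8% of all genes called, with a median change of 0.053. At 8 months 18 rose and 2 fell, against 12.9% of all genes called, with a median of 0.120. At 3 months 0 of 99 were called in limma, against 1.25%, and 18 had an unadjusted p below 0.05, against 11.6%. At 5 months 4 rose and 0 fell, against 2.97% of all genes called and 2.31% called higher. The counts of single lists that follow are to be read against 8.39% of all genes higher and 6.43% lower over the ages, and 6.97% higher and 5.95% lower at 8 months.

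Among targets of ATF4, 8 of 21 tested genes (38.1%) rose over the ages and 0 fell (median 0.131), although Atf4 itself was not called. They include Nupr1, a stress-induced nuclear protein, which read 137.5 to 351.7 on the 9 knockout arrays (median 223.7), against 86.74 to 150.1 on the 9 wild-type arrays (median 122.0), and rose by 0.778 ± 0.095 (1.715-fold, adjusted p 5.61e-06). Slc3a2, the heavy chain of amino acid transporters, rose by 0.295 ± 0.049 (adjusted p 0.000271) and Slc7a11, the cystine and glutamate exchanger, by 0.549 ± 0.096 (adjusted p 0.000523). At 8 months 6 of 21 (28.6%) rose, among them Nupr1 by 0.954 and Psat1, an enzyme of serine synthesis, by 0.430 ± 0.094 (adjusted p 0.00491). At 8 months 8 were higher and 1 lower without knockout replicate 3, and 0 were called without replicates 1 and 2, while the share of all genes called was 21.5% and 2.34% in these settings. Over the ages 8 were higher without replicate 3 and 4 without replicates 1 and 2, with 21.2% and 9.55% of all genes called.

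Of the 19 other folding genes 3 (15.8%) rose over the ages and 0 fell. Ppib, a prolyl isomerase, rose by 0.288 ± 0.047 (adjusted p 0.000269), Sil1, the nucleotide exchange factor of BiP, by 0.373 ± 0.078 (adjusted p 0.00258) and P4hb, the founding disulfide isomerase, by 0.226 ± 0.052 (adjusted p 0.00543). Of 9 genes of cell death under endoplasmic reticulum stress 3 rose. Casp12, a caspase tied to that organelle in mice, was dim, at 25.37 to 76.21 on the knockout arrays and 15.88 to 37.72 on the wild-type arrays, and rose by 0.686 ± 0.136 (adjusted p 0.0017). Pmaip1 (Noxa) was dim as well, at 26.44 to 107.3 on the knockout arrays and 17.28 to 28 on the wild-type arrays. It rose by 0.544 ± 0.151 (adjusted p 0.019), and Tmbim6 (Bax inhibitor-1) rose by 0.176 ± 0.044 (adjusted p 0.00963).

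The degradation list had 1 of 17 genes higher over the ages, Derl1, a channel component, by 0.211 ± 0.047 (adjusted p 0.00439). At 8 months Edem3, which trims glycans of misfolded proteins, fell by 0.391 ± 0.115 (adjusted p 0.0301). Of 19 translocation and traffic genes 2 rose, Ssr3 by 0.207 ± 0.043 and Ssr1 by 0.170 ± 0.045, subunits of a complex beside the translocon (adjusted p 0.00265 and 0.0136), and Sec23b, a coat protein of export vesicles, fell by 0.210 ± 0.064 (adjusted p 0.0334). At 8 months Sec63, a translocon partner, rose by 0.427 ± 0.119 (adjusted p 0.0225). The sensor list had 0 of 6 genes higher and 1 lower, Mbtps2, the protease that releases ATF6, by -0.173 ± 0.055 (adjusted p 0.0403). Of 8 kinase and phosphatase genes acting on eIF2 alpha, Ppp1cc, a phosphatase catalytic subunit, fell by 0.143 ± 0.033 (adjusted p 0.00592). At 8 months Dnajc3, a BiP co-chaperone that inhibits PERK, rose by 0.499 ± 0.109 (adjusted p 0.00486).

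Microglial markers moved with these groups, with 8 of 10 higher over the ages, as did astrocyte markers, with 9 of 9 higher. Their sums were higher on every knockout array than on every wild-type array of the same age, at 4038 to 4322 against 2481 to 2670 for microglia at 3 months. The part of these cells in the counts was not tested. Of 9 neuronal markers 3 were lower over the ages. Of 8 meningeal fibroblast markers 6 were higher over the ages and 5 at 8 months. Of 7 oligodendrocyte markers 0 were called over the ages and 2 were higher at 8 months. Over the ages 8.39% of all genes were higher and 6.43% lower, and at 8 months 6.97% were higher. The part of these cells was not tested either. Without 8-month knockout replicate 3, 24 of the 99 pathway genes were higher and 5 lower at 8 months, with 21.5% of all genes called, and without replicates 1 and 2, 3 were higher and 0 lower, with 2.34% called. Of the single genes given at 8 months, without replicate 3 Nupr1 was at 1.043, Psat1 at 0.513, Edem3 at -0.553, Sec63 at 0.517 and Dnajc3 at 0.540, all called. Without replicates 1 and 2 they were at 0.716, 0.258, -0.017, 0.231 and 0.418, none called. Of the single genes given over the ages, Pmaip1 at 0.305, Tmbim6 at 0.160, Derl1 at 0.130, P4hb at 0.142, Ssr1 at 0.113 and Mbtps2 at -0.189 no longer passed without replicates 1 and 2.

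**Figure D5:**
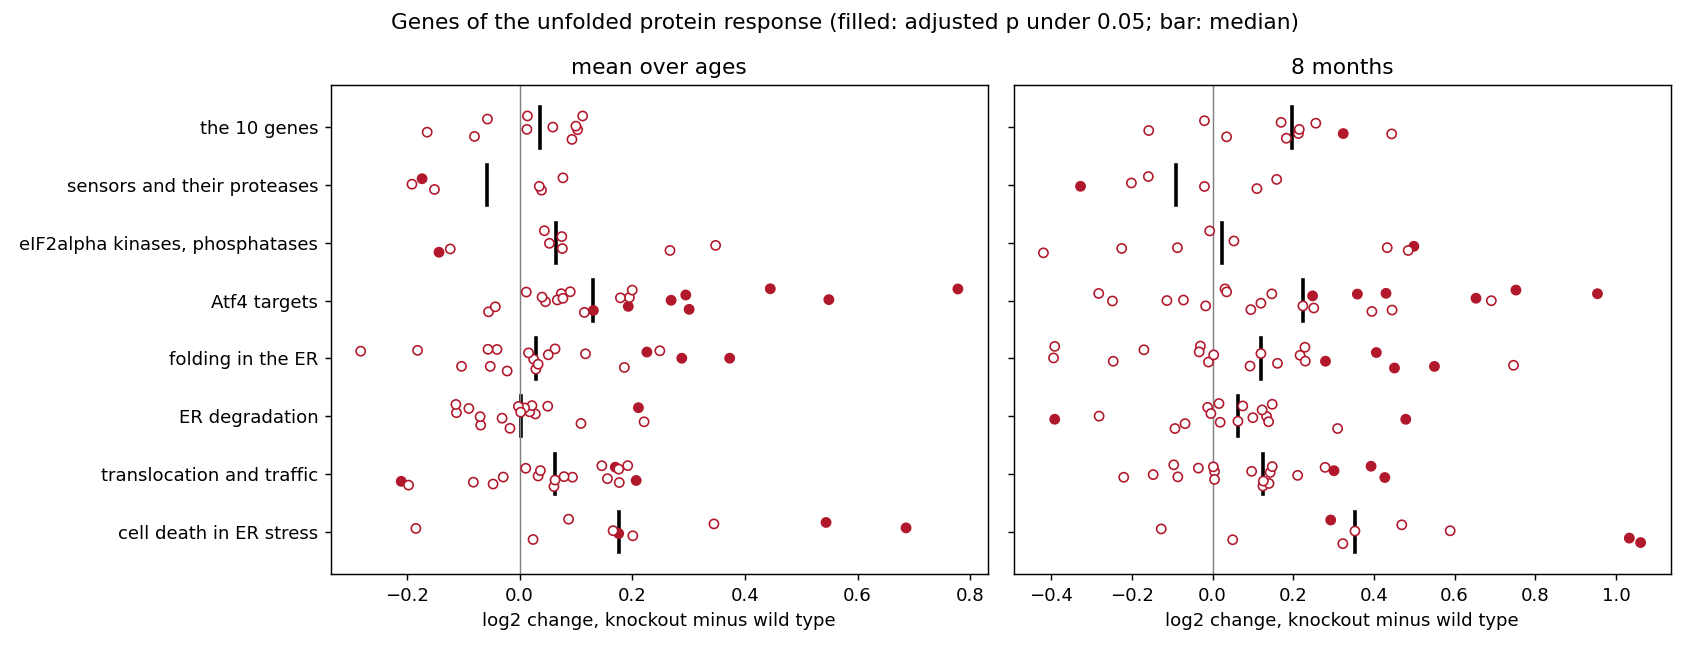
Log2 change, knockout minus wild type (x axis), of the 10 genes and of the tested genes of each pathway list (rows), as the mean over the ages and at 8 months; each point is a gene, filled where called, and the bar is the median. Over the ages 8 of 21 genes in the ATF4 target row are filled, all higher, and 0 of the 10 genes.

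Over the 18 arrays the 10 genes varied together in part. Of 45 pairs, 38 had a correlation above 0 within groups, that is, once group means and a sex term were taken off. The median r was 0.571, and 0.283 over the 15 arrays without the 8-month knockout. The highest was Hspa5 with Xbp1, at 0.91 within groups and 0.923 without the 8-month knockout. Xbp1 with Atf4 was at 0.808, and at 0.246 without those arrays. Every pair below 0 within groups held Dnajb9, the lowest being Pdia4 with Dnajb9, at -0.696 and at -0.837 without those arrays. Hspa5 with Dnajb9 was at -0.257, and at -0.632 without them. Dnajb9 was above 0 within groups only with Herpud1 (0.141) and Hsp90b1 (0.064). No share over all gene pairs is given here. Among all other tested genes, Manf, a secreted protein of the endoplasmic reticulum, was most like both Hspa5 (r 0.877) and Xbp1 (r 0.921), followed by Sdf2l1 (0.861) and Mtmr4 (0.853) for Hspa5 and by Cfp (0.868) and Chordc1 (0.868) for Xbp1. Atf4 was most like Zfp658 (0.893), Npas4 (0.884) and Pogk (0.878), and Ddit3 most like Ermn (0.777), Tab2 (0.763) and Unc119b (0.762). These correlations over 18 arrays include the differences between groups and are descriptions.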

How the data were processed

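RNA of 18 samples was measured on 1 Affymetrix mouse array each. The authors deposited linear intensities per probe set, and their software and scaling steps are not given in the sources used. With the top and bottom 2% trimmed off, the mean intensity was 150 for each array. Intensities were used as deposited and analysed as log2(signal + 16), which understates folds at low signal. Left out were 64 control probe sets and the 40% with the lowest mean, which left 27022. A gene was counted by its brightest probe set. Background was the 95th percentile of 27 bacterial control probe sets per array.

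With limma 3.58.1 in R 4.3.3, 1 linear model of all arrays held the 6 groups plus sex (lmFit, eBayes with trend), with two-sided tests, Benjamini-Hochberg adjustment over all tested probe sets and a threshold of 0.05. The model was tested on simulated data. Replicates were numbered in record order, and an error after a log2 change is a standard error. Apart from comparisons of ages within a genotype, rose and fell mean higher and lower in the knockout than in the wild type. The number of arrays limits the precision.

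The 10 genes and the lists were chosen with earlier results of these data known. All 10 were named, with up to 3 called genes with the smallest p per list over the ages and at 8 months, and for Hspa5, Xbp1, Atf4 and Ddit3 the 3 genes of highest correlation. Alternatives were other normalizations, filters, pseudocounts and models, and each array left out.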

Additional observations from a re-analysis of the deposited data

Results flagged for a closer look

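The effect of the knockout on Calr differed between 8 and 3 months by the test of that difference itself. The brightest probe set gave 0.497 ± 0.105 (log2, adjusted p 0.0247) and another Calr probe set gave 0.548 (adjusted p 0.0177), while the remaining one gave 0.422 and did not pass (adjusted p 0.0827). At 3 months Calr was lower on 3 of 3 knockout arrays than on every wild-type array, and at 8 months the groups overlapped. The brightest probe set passed in 21 of 29 alternatives, over which its value ran from 0.427 to 0.667 and its adjusted p from 0.0081 to 0.132.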

How the results depend on the processing

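Against the fit of all arrays, no value of an alternative had the opposite sign where either was called. The alternatives were not set against each other. The sign of Xbp1 at 8 months depended on which knockout arrays were left out, as given above. Of 2030 values of single probe sets under the alternatives, 1966 kept their side of the threshold, 26 passed newly and 38 no longer passed. Most of these values were not called with all arrays, and the 38 all fell on calls made with all arrays. Out of 29 alternatives, Calr passed in 18 at 3 months and in 21 for the effect at 8 minus 3 months. Within the knockout, 8 minus 3 months, Calr passed in 19 and Hspa5 in 23. Hsp90b1 passed in 26 at 8 months. In 42 of the 1966 the sign differed with neither value called. At 3 months the count of called genes, 1, became 0 with no filter, quantile normalization or a robust variance model, and 2 with only the groups compared. At 5 months it became 1 with only the groups compared. At 8 months the count of 1, and likewise that for the effect at 8 minus 3 months, became 2 with no sex term and 0 with the robust model or only the groups compared. Within the knockout, 8 minus 3 months, the count of 2 became 1 with no filter, quantile normalization or no sex term, and 0 with the robust model or only the groups compared. Without the 8-month knockout replicates 1 and 2 together, a setting chosen after seeing the data, the counts were 2 over the ages, 1 at 5 months, 4 at 8 months and 5 for the effect at 8 minus 3 months, and the medians of the 10 genes were 0.161, 0.467 at 8 months, 0.662 for that effect and 0.471 within the knockout. With each array left out in turn, the count ran from 0 to 2 over the ages, 0 to 1 at 3 and at 5 months, 0 to 3 at 8 months and for the effect at 8 minus 3 months, and 0 to 2 within the knockout. These counts are not to be read alone, because the share of all genes called moved too. Without 8-month knockout replicate 3 it went from 12.9% to 21.5% at 8 months. For the effect at 8 minus 3 months it went from 1.18% to 7.63%. The median ran from 0.006 to 0.066 over the ages, -0.26 to -0.104 at 3 months, 0.102 to 0.26 at 8 months, 0.195 to 0.443 for the effect at 8 minus 3 months, 0.12 to 0.257 within the knockout and -0.275 to -0.066 within the wild type. The cause of these shifts was not tested. No paired analysis was possible because the labels number the samples individually and share no replicate number between groups. With 3 arrays a group, a change that missed the threshold is bounded only by its interval.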

Other observations

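Of the 99 other pathway genes, 2 had a knockout effect that was higher at 8 than at 3 months. In that comparison 1.18% of all genes were called and 0.968% were called higher. The log2 difference was 0.791 ± 0.153 for Dnajc3 (adjusted p 0.0177), and 0.626 ± 0.132 for Psat1 (adjusted p 0.0247). Without 8-month knockout replicate 3 these were 0.832 and 0.709, both called, and without replicates 1 and 2 they were 0.710 and 0.455, neither called. Asns, the asparagine synthetase and a target of ATF4, fell within the knockout between 3 and 8 months by 0.305 ± 0.072 (adjusted p 0.0164), while Psat1 of the same list rose by 0.460 ± 0.094 (adjusted p 0.00655). Without replicates 1 and 2 the changes were -0.228 (adjusted p 0.453) for Asns and 0.289 (adjusted p 0.419) for Psat1. Asns was named after its values were seen.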
